A study of Rattus norvegicus with 40 samples.

Results

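Splicing factors and heterogeneous nuclear ribonucleoproteins (hnRNPs) were followed in neonatal rat ventricular myocytes (NRVMs), cultured heart muscle cells of newborn rats, under ischemia with and without reperfusion. Members were the probe sets with a single platform gene symbol of the Srsf, Snrp, Sf3a or Sf3b, Prpf or Hnrnp families: 93 probe sets of 57 genes, of 31042 probe sets on the Affymetrix rat array. A probe set is a group of short probes that together read a stretch of transcript. The array named 14217 genes by a single symbol. Of the 57 genes, 38 had 1 probe set and 19 had several, up to 5 for Hnrnpa3 and for Srsf10, so that probe sets of the same gene could be compared. Another 8 probe sets carried several symbols and were left out.

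Total RNA was measured on 40 arrays in 10 groups. The arms were ischemia+reperfusion and ischemia alone, each labelled 0, 10, 30, 60 and 120 min, with ischemia made by coverslip hypoxia, in which a coverslip laid on the culture restricts oxygen and medium. Each group held 4 arrays, 2 duplicates of each of 2 cell preparations. The labels name no strain or agent, and they do not say whether duplicates were separate cultures, how long reperfusion lasted or what the minutes cover, so p-values measure the spread between these samples, which may be technical.

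Splicing removes introns from pre-mRNA on the spliceosome, a machine of small nuclear ribonucleoproteins (snRNPs) and many other proteins. SR proteins, which carry a serine and arginine rich tail, mostly bind exons and recruit the spliceosome; hnRNP proteins coat nascent RNA and often repress nearby splice sites. The Snrp genes encode snRNP proteins, both the Sm proteins of the shared core and proteins particular to one snRNP such as Snrpa, SF3 subunits hold the branch point, and PRPF proteins assemble and activate the catalytic complex. Many SR and hnRNP genes themselves make several transcripts, some with an exon that leads to decay, so probe sets of a gene can read different transcripts. In the mouse heart, splicing factors such as Srsf1 are needed for postnatal maturation of heart muscle transcripts.

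The promoters of the 4 genes with a probe set that changed the same way at 120 min in both arms are shown, since these genes recur in the results. Each sequence is the 250 bases before the start given in the RefSeq promoter table (assembly GRCr8), written 5′ to 3′ on the gene's own strand. Capitals mark matches, on either strand, to 4 motifs: ACGTG, the core of the hypoxia response element; GAANNTTC, a heat shock element unit; CCAAT, the CCAAT box; and TGACG, a partial site of the cAMP response element, which can overlap ACGTG. Hnrnpa2b1 lies at chr4:81875887-81876136 (minus strand), Hnrnpu at chr13:92618581-92618830 (minus strand), Srsf1 at chr10:73336248-73336497 (plus strand) and Srsf10 at chr5:153372066-153372315 (plus strand). The annotated gene spans of Srsf1 and Srsf10 begin at 73335519 and 153372307, so their windows lie wholly or partly inside the span.
Hnrnpa2b1: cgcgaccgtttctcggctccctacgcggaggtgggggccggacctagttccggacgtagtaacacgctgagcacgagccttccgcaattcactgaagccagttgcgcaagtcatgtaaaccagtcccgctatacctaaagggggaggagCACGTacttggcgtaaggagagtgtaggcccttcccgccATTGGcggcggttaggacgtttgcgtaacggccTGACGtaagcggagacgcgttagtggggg
Hnrnpu: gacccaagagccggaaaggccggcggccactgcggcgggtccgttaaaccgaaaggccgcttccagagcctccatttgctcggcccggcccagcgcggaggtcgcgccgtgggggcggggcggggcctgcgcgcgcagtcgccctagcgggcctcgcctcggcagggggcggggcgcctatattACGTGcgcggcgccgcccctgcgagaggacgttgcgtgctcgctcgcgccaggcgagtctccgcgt
Srsf1: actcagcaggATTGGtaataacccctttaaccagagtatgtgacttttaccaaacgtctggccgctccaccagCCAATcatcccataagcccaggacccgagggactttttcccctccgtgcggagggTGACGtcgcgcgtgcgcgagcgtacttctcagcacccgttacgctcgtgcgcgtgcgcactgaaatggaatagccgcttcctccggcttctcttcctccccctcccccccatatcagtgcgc
Srsf10: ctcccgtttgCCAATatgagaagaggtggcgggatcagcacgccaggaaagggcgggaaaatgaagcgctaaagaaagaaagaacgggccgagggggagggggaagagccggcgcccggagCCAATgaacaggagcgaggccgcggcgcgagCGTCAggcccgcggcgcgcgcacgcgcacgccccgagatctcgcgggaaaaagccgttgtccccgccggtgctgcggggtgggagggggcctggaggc
Hnrnpa2b1 held 1 ACGTG, 1 CCAAT and 1 TGACG match, Hnrnpu held 1 ACGTG match, and Srsf1 and Srsf10 each held 2 CCAAT and 1 TGACG match. None of the 4 held GAANNTTC in this window. Over the 55 member genes found in the table, ACGTG was present in 21 promoters (38.2%), against 16.9% of all 27457 promoters. TGACG was present in 28 (50.9%, against 19.0% of all), CCAAT in 27 (49.1%, against 34.3%) and GAANNTTC in 5 (9.09%, against 7.02%). The shares over all promoters were not matched to the members for base composition or gene type, and ACGTG and TGACG both hold the letters CG. These matches are descriptions of letters, and no binding was measured.

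Levels are given as log2 of the quantile-normalized intensity plus 16, and changes as differences of these levels, which understate the change of dim probe sets. The 4 values of a group are listed as duplicates 1 and 2 of preparation 1, then duplicates 1 and 2 of preparation 2. A change counted as called at a limma adjusted p under 0.05 over the 18625 probe sets tested, with n = 2 preparations per group and the spread pooled over all 10 groups. Counts at an unadjusted p under 0.05 cover the members or their pairs alone. The share of all probe sets or pairs at that cut is not given, so these counts are no result about the members. Of the 93 member probe sets 89 were tested, from 56 of the 57 genes; a probe set each of Srsf3, Srsf10, Prpf3 and Prpf4b was too dim. By role, 17 of 19 SR probe sets, 11 of 11 snRNP, 13 of 13 SF3, 17 of 19 PRPF and 31 of 31 hnRNP probe sets were tested. 

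Several arrays stood apart. The median correlation of an array with the others was 0.960 to 0.979, except for the 0 min ischemia array of preparation 1, duplicate 1, at 0.872. Changes of named members against 0 min ischemia are therefore given with and without that array where it mattered. At 120 min, the ischemia+reperfusion array of preparation 2, duplicate 1, lay nearest to 120 min ischemia, and the ischemia array of preparation 2, duplicate 2, lay nearest to 60 min ischemia+reperfusion. They are called the 2 arrays out of place, although the ischemia+reperfusion array of preparation 1, duplicate 2, also lay nearest to 120 min ischemia. In all, 16 of the 40 arrays lay nearest to a group other than their own. Heart muscle markers were bright throughout: 11 cardiomyocyte genes summed to intensities of 92528 to 107262 over all arrays, and 0 of them were called at 120 min of ischemia. Of 11 fibroblast probe sets 3 were called higher at 120 min of ischemia, with a list sum of 54631 to 56363 there against 46467 to 52795 at 0 min, without overlap. The summed macrophage and leukocyte list was also higher, at 6517 to 7027 against 5164 to 6380 at 0 min without overlap, although 0 of its 10 tested probe sets were called. At 0 min of ischemia+reperfusion the fibroblast sum was 49373 to 58878 and the macrophage and leukocyte sum 5726 to 7193. Both ranges span the sums of 120 min ischemia. Of 7 endothelial probe sets 3 were called higher and 1 lower, with overlapping sums of 2100 to 3048 against 1782 to 2423. The part of these lists in the changes of the members was not tested. In bulk RNA, fewer cells of a type and less RNA per cell cannot be told apart. Known hypoxia and stress genes responded: at 120 min of ischemia Ankrd37 was 3.20 and Hmox1 1.93 log2 units above 0 min.

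Over the 10 group means, the median range of the member probe sets was narrower than that of the array as a whole. The sets were not matched for level, and a range also holds the spread between arrays. The range from the lowest to the highest group mean had a median of 0.31 log2 units over the 89 members, against 0.41 over all 18625 probe sets tested. The widest ranges were those of Prpf38b 1379691_at (1.48), Prpf4b 1382646_at (1.31) and Hnrnpu 1372823_at (1.16). The highest mean of Prpf38b 1379691_at was that of 0 min ischemia, where the outlying array read 9.24 and the other 3 read 7.70 to 7.77. The order of these ranges was not recomputed without that array. The lowest mean of Prpf4b 1382646_at was that of 0 min ischemia, where it was listed at the floor on the outlying array and at 8.72 to 9.01 on the other 3. The narrowest were Sf3b2 1388614_at (0.10), Sf3b6 1371396_at (0.11), both subunits that bind at the branch point, and Hnrnpab 1370309_a_at (0.11). Sf3b2 1388614_at ran only from 11.41 to 11.63 over all 40 arrays.

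**Figure D1:**
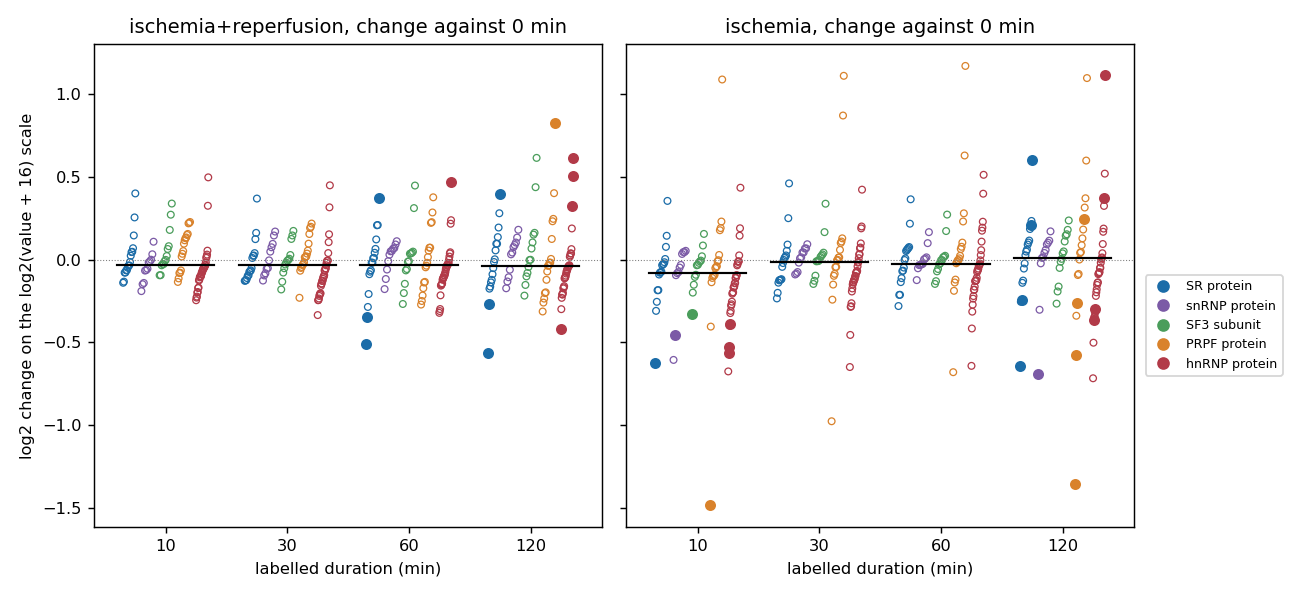
Circles show the log2 change of each of the 89 tested member probe sets against 0 min of its own arm at 10, 30, 60 and 120 min, coloured by role, with ischemia+reperfusion left of ischemia, filled circles for called changes and black lines at the members' median. Most circles lie close to 0; the called changes run from -0.56 to 0.83 in ischemia+reperfusion and from -1.48 to 1.11 in ischemia.

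At 120 min of ischemia against 0 min, 5 member probe sets rose and 8 fell of 89 (14.6%). The background was 12.9% of all probe sets tested (6.45% higher and 6.48% lower), so the members' share was near that of the array. The median change was 0.01 for the members and -4.32e-05 for all probe sets. By role, 2 SR probe sets rose and 2 fell of 17, 0 rose and 1 fell of 11 snRNP, 0 were called of 13 SF3, 1 rose and 3 fell of 17 PRPF, and 2 rose and 2 fell of 31 hnRNP probe sets. At an unadjusted p under 0.05 there were 36.

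Hnrnpu, an abundant hnRNP protein that binds RNA and the nuclear scaffold, had the largest rise. Its probe set 1372823_at read 8.52, 8.53, 8.52 and 8.41 at 120 min of ischemia, against 7.40, 7.38, 7.50 and 7.25 at 0 min. All 4 arrays at 120 min lay above all 4 at 0 min, and also above the 7.71 to 8.24 of 60 min, the 7.33 to 7.66 of 30 min and the 6.97 to 7.88 of 10 min. The change was 1.11 log2 units (SE 0.137, 2.16-fold, limma adjusted p = 0.00253). It was 1.05 to 1.17 with any single array left out and passed in each of the alternatives run, the duplicates taken alone included (1.07 with duplicate 1, adjusted p = 0.0228; 1.16 with duplicate 2, adjusted p = 0.0289). No other named call passed in both single-duplicate fits. Against 10 min of ischemia the same probe set was also higher, by 0.97 (SE 0.137, adjusted p = 0.0132).

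The other Hnrnpu probe sets did not follow it. Probe set 1370170_at read 12.30, 12.30, 12.36 and 12.31 at 120 min of ischemia, against 11.19, 12.30, 12.29 and 12.20 at 0 min, a change of 0.32 that did not pass (adjusted p = 0.103). Probe set 1370171_at read 11.07, 11.12, 11.22 and 10.99, against 12.32, 11.05, 11.25 and 11.15 at 0 min, a change of -0.34 (adjusted p = 0.0656). In both, the 0 min array that differed from its group was the outlying one. Tested as a ratio of the probe sets, the change of 1370171_at minus that of 1372823_at was -1.46 log2 units (SE 0.198, adjusted p = 0.00596 over 5112 pairs), and that of 1370170_at minus 1372823_at was -0.79 (adjusted p = 0.0258). Without the outlying array these differences were -1.15 and -1.07, both still called. The second was -0.50 and not called after removal of the 0 min array of preparation 1, duplicate 2 (adjusted p = 0.173).

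SR proteins moved in both directions. Srsf11, an SR protein that acts at the start of spliceosome assembly, read 9.27, 9.23, 9.54 and 8.76 in its probe set 1382056_at at 120 min of ischemia, against 8.66, 8.64, 8.71 and 8.37 at 0 min. All arrays at 120 min were above those at 0 min, and the change was 0.60 (SE 0.125, adjusted p = 0.0139). Without the 120 min array of preparation 2, duplicate 1, the change was 0.41 and did not pass (adjusted p = 0.111). Against 10 min of ischemia, where it read 8.64, 8.45, 8.46 and 8.55, it was higher by 0.68 (adjusted p = 0.0373), or 0.48 without that array (adjusted p = 0.162). The second Srsf11 probe set, 1368212_at, rose by 0.21 (adjusted p = 0.0360), but its platform accession belongs to Csnk2b in RefSeq, so its gene is uncertain.

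Srsf1, the founding SR protein, read 11.46, 11.25, 11.41 and 11.26 in probe set 1371581_at at 120 min of ischemia, against 11.55, 11.66, 11.59 and 11.55 at 0 min. The groups did not overlap, and the change was -0.25 (SE 0.0654, adjusted p = 0.0323). It was no longer called without either of the 120 min arrays of duplicate 2 (-0.19 and -0.21, adjusted p = 0.0777 and 0.0605) or after removal of the 0 min array of preparation 1, duplicate 2 (-0.22, adjusted p = 0.0536). Its other probe set, 1374072_at, changed by -0.02.

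Srsf10, an SR protein that represses splicing once it is dephosphorylated in heat shock, was called lower in 1 of its 4 tested probe sets. Probe set 1380269_at read 7.66, 6.89, 7.86 and 6.72 at 120 min of ischemia, against 7.87, 7.97, 7.79 and 8.06 at 0 min, and 1 array at 120 min lay within the 0 min range. The change was -0.64 (SE 0.0895, adjusted p = 0.00413). The fall lay in the duplicate 2 arrays: it was -1.21 with duplicate 2 alone (adjusted p = 0.0138) and -0.07 with duplicate 1 alone (adjusted p = 0.844). Averaging the duplicates hides this split, and with arrays as samples the change did not pass (adjusted p = 0.163), nor without the 2 arrays out of place (-0.36, adjusted p = 0.362). In the reperfusion arm the same probe set was higher in duplicate 1 than in duplicate 2 in 10 of 10 pairs, by 0.72 on average, against 5 of 10 pairs and 0.20 in ischemia; the cause was not tested. The other tested Srsf10 probe sets, 1382052_at, 1386071_at and 1393946_at, changed by 0.10, 0.12 and 0.09. The change of 1380269_at minus that of 1393946_at was -0.73, but -0.33 without the outlying 0 min array. Minus that of 1382052_at it was -0.75 and -0.70. On the outlying array 1380269_at read 7.87, within the range of its group, so the 0.09 of 1393946_at depended on that array.

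**Figure D2:**
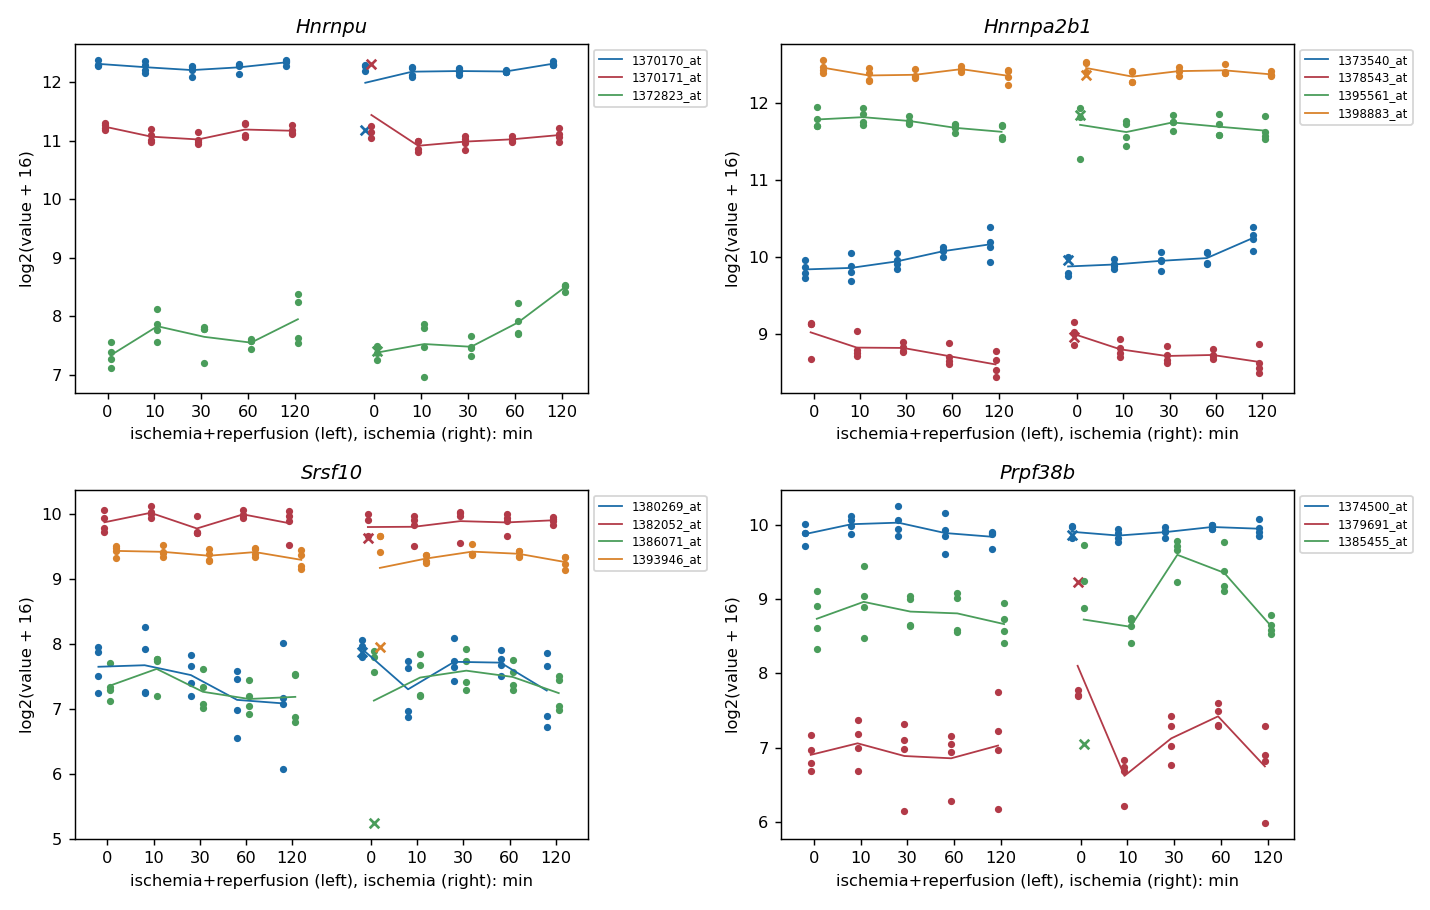
Points are the log2 levels of all tested probe sets of Hnrnpu, Hnrnpa2b1, Srsf10 and Prpf38b on each array, lines join the means of the groups of 4 arrays over 0 to 120 min, with ischemia+reperfusion left of ischemia, and crosses mark the outlying 0 min ischemia array. Hnrnpu 1372823_at stands at 8.41 to 8.53 in 120 min ischemia, Hnrnpa2b1 1373540_at and 1378543_at lie farther apart at 120 min than at 0 min in both arms, and several probe sets have their cross far from the other 3 arrays.

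Among the hnRNP genes, Hnrnpa2b1 moved both ways. The gene encodes the A and B type hnRNP proteins of that name, which bind nascent RNA. Its probe set 1373540_at read 10.23, 10.28, 10.40 and 10.08 at 120 min of ischemia, against 9.96, 9.99, 9.79 and 9.75 at 0 min, and rose by 0.37 (SE 0.0738, adjusted p = 0.0124). Probe set 1378543_at read 8.56, 8.62, 8.87 and 8.48 at 120 min, against 8.95, 9.15, 9.02 and 8.85 at 0 min, and fell by 0.36 (SE 0.0992, adjusted p = 0.0360). The first pair of groups did not overlap, and the second overlapped by 1 array at 120 min. The fall was not called after removal of the 0 min array of preparation 1, duplicate 2 (-0.31, adjusted p = 0.0553), the 0 min array of preparation 2, duplicate 1 (-0.32, adjusted p = 0.0602), or the 120 min array of preparation 2, duplicate 2 (-0.27, adjusted p = 0.116). The ratio of these probe sets differed by 0.73 (SE 0.116, adjusted p = 0.00853), while 1395561_at and 1398883_at each changed by -0.08 and did not pass.

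Hnrnpm, an hnRNP protein that regulates exon inclusion, read 10.44, 10.35, 10.34 and 10.35 at 120 min of ischemia, against 10.70, 10.64, 10.73 and 10.62 at 0 min. The groups did not overlap, and the change of -0.30 (SE 0.0858) passed narrowly (adjusted p = 0.0418). It was not called without the outlying 0 min array (-0.29, adjusted p = 0.0516), nor without the 120 min arrays of preparation 1, duplicate 2 (-0.28, adjusted p = 0.0525) or preparation 2, duplicate 1 (-0.30, adjusted p = 0.0543).

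Of the PRPF and snRNP genes, Prpf38b showed the largest fall. Prpf38b encodes a spliceosome protein with an arginine and serine rich tail. Its probe set 1379691_at read 6.82, 6.90, 7.29 and 5.99 at 120 min of ischemia, against 9.24, 7.70, 7.77 and 7.71 at 0 min, without overlap. The change was -1.35 (SE 0.196, adjusted p = 0.00474). Without the outlying array, which held the 9.24, it was -0.97 (adjusted p = 0.0064). Against the 0 min group of the reperfusion arm, which read 7.17, 6.97, 6.68 and 6.79, it was -0.16 and not called. The other probe sets 1374500_at and 1385455_at changed by 0.04 and -0.09.

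Prpf3, a subunit of the tri-snRNP, read 6.39, 6.55, 6.41 and 6.93 in probe set 1384404_at at 120 min of ischemia, against 7.28, 7.32, 6.80 and 7.19 at 0 min. A single array of each group fell within the range of the other, and the change was -0.58 (SE 0.117, adjusted p = 0.0130). Without the 120 min array of preparation 2, duplicate 1, it was -0.45 and did not pass (adjusted p = 0.0855). Probe set 1372432_at read 9.77, 9.83, 9.86 and 9.96, against 9.49, 9.66, 9.49 and 9.51 at 0 min, a change of 0.31 that missed the threshold (adjusted p = 0.0625) although the groups did not overlap. The difference between these probe sets was called, at 0.89 (SE 0.138, adjusted p = 0.00812).

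The remaining calls were small or rested on single arrays. Snrpn, an imprinted Sm protein of brain and heart, read 6.56, 6.35, 6.84 and 6.54 at 120 min of ischemia, against 6.86, 7.48, 7.28 and 7.43 at 0 min. The change was -0.69 (SE 0.189, adjusted p = 0.0354) without overlap, and -0.54 after removal of the 0 min array of preparation 1, duplicate 2 (adjusted p = 0.101). Prpf18 1399021_at, a factor of the second catalytic step, changed by -0.26 (adjusted p = 0.0431), and Prpf4 1392461_at, a partner of Prpf3, by 0.24 (adjusted p = 0.0481); each lost its call without any 1 of 4 arrays, at -0.20 to -0.32 and 0.20 to 0.24. Of the SF3 subunits, Sf3b5 and Sf3b4 came nearest, at -0.19 (adjusted p = 0.0630) and 0.24 (adjusted p = 0.0862).

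At 120 min of ischemia+reperfusion against 0 min of that arm, 5 member probe sets rose and 3 fell of 89 (8.99%), against a background of 7.17% (3.5% higher and 3.68% lower). The median change was -0.04 for the members and -0.02 for all probe sets. By role, 1 SR probe set rose and 2 fell, 1 PRPF rose, 3 hnRNP rose and 1 fell, and 0 of 11 snRNP and 0 of 13 SF3 probe sets were called. At an unadjusted p under 0.05 there were 21.

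Prpf4b, a kinase of spliceosome proteins, had the largest rise. Its probe set 1385533_at read 8.01, 8.10, 9.25 and 8.15 at 120 min of ischemia+reperfusion, against 7.62, 7.57, 7.51 and 7.49 at 0 min, without overlap. The change was 0.83 (SE 0.186, adjusted p = 0.0268), and 0.56 without the 2 arrays out of place, one of which held the 9.25 (adjusted p = 0.0366). The other tested Prpf4b probe sets, 1376010_at and 1382646_at, changed by -0.31 and -0.24 and did not pass.

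Hnrnpu 1372823_at read 7.64, 8.39, 8.24 and 7.54 at 120 min of ischemia+reperfusion, against 7.57, 7.28, 7.39 and 7.11 at 0 min. Only 1 of the 4 arrays at 120 min overlapped the 0 min range, and the change was 0.62 (SE 0.137, adjusted p = 0.0265). It was 0.43 (adjusted p = 0.119) without the array of preparation 1, duplicate 2, and 0.44 (adjusted p = 0.103) without that of preparation 2, duplicate 1. Hnrnpa1 1372693_at, of the gene for a repressor of exon inclusion, read 10.57, 10.42, 10.53 and 10.07, against 10.01, 9.85, 9.93 and 9.80 at 0 min, with no overlap. It rose by 0.50 (SE 0.0922, adjusted p = 0.0143), or by 0.39 without the array of preparation 2, duplicate 1 (adjusted p = 0.0543), while 1375612_at and 1387872_at of the same gene changed by -0.06 and -0.08.

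Srsf5, an SR protein, read 11.94, 11.90, 12.03 and 11.88 at 120 min of ischemia+reperfusion and 11.78, 11.89, 11.95 and 12.03 at 60 min, against 11.58, 11.53, 11.62 and 11.42 at 0 min. Both later groups lay above all arrays of 0 min. The changes were 0.40 at 120 min (SE 0.0703, adjusted p = 0.0132) and 0.37 at 60 min (adjusted p = 0.0187), and each was called whichever single array was left out. In ischemia alone Srsf5 changed by 0.026 at 120 min, which did not pass.

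Srsf1 1371581_at read 11.37, 11.41, 11.39 and 11.21 at 120 min of ischemia+reperfusion and 11.25, 11.37, 11.18 and 11.29 at 60 min, against 11.58, 11.67, 11.65 and 11.56 at 0 min. No array of the later groups overlapped those of 0 min. The change was -0.34 at 60 min (SE 0.0654, adjusted p = 0.0192), which passed whichever array was left out, and -0.27 at 120 min (adjusted p = 0.0352). The 120 min call was lost after removal of the 0 min array of preparation 2, duplicate 1 (-0.25, adjusted p = 0.0573) or the 120 min array of preparation 2, duplicate 2 (-0.22, adjusted p = 0.0692).

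Hnrnpa2b1 again moved both ways. Probe set 1373540_at read 10.13, 10.19, 10.39 and 9.94 at 120 min of ischemia+reperfusion, against 9.96, 9.87, 9.72 and 9.79 at 0 min, a rise of 0.33 (SE 0.0738, adjusted p = 0.0279). Probe set 1378543_at read 8.44, 8.65, 8.77 and 8.53, against 9.13, 9.14, 9.12 and 8.67 at 0 min, and changed by -0.42 (SE 0.0992, adjusted p = 0.0326). Each pair of groups overlapped by a single array at each side. The rise was 0.21 after removal of the 120 min array of preparation 2, duplicate 1 (adjusted p = 0.107), and the fall -0.31 without the 0 min array of the same number (adjusted p = 0.194) and -0.36 after removal of the 120 min array of preparation 2, duplicate 2 (adjusted p = 0.0674). The ratio of these probe sets differed by 0.75 (adjusted p = 0.0160; 0.61 and adjusted p = 0.0827 without the 0 min array of preparation 2, duplicate 1), the 1 pair called among 52 member pairs in this comparison, where 0.939% of all pairs were called.

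Srsf10 1380269_at read 7.17, 7.08, 8.01 and 6.07 at 120 min of ischemia+reperfusion, against 7.88, 7.50, 7.95 and 7.25 at 0 min. The groups overlapped and in both preparations of both groups duplicate 1 read higher than duplicate 2. The fitted change was -0.56 (adjusted p = 0.00929), but -0.08 after removal of the 120 min array of preparation 2, duplicate 2 (adjusted p = 0.850) and -0.39 after removal of the 0 min array of preparation 2, duplicate 1 (adjusted p = 0.0824), and with arrays as samples it did not pass (adjusted p = 0.281).

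**Figure D3:**
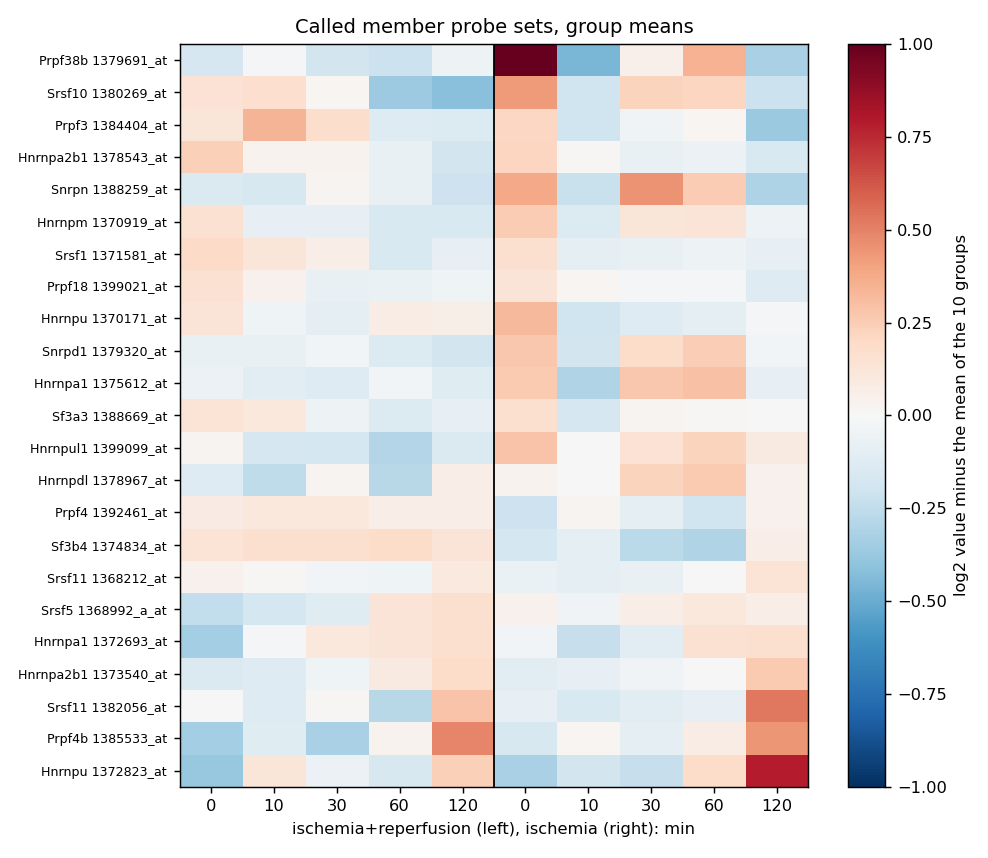
Colours show the group mean of each member probe set called in any comparison (23 probe sets of 19 genes) minus its mean over the 10 groups, in log2 units, with ischemia+reperfusion left of ischemia, time from 0 to 120 min on the horizontal axis and the colour scale capped at 1 in either direction. The darkest cells are Prpf38b 1379691_at at 0 min ischemia, where the outlying array read 9.24, and Hnrnpu 1372823_at at 120 min ischemia, where the arrays read 8.41 to 8.53.

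At 10 min of ischemia against 0 min, 7 member probe sets were called, each lower (7.87% of 89), where 1.98% of all probe sets were called (1.14% higher and 0.838% lower). Of the 89 members 69 had a negative change, and the median was -0.08 against 0.0035 over all probe sets. The hnRNP probe sets had a median of -0.16, with 27 of 31 negative and 3 called. The count moved with single arrays of either group and with the choice of the 0 min group. Without the outlying 0 min array 2 of the 7 calls were left, those of Prpf38b and Srsf10, where 1.39% of all probe sets were called. Against the 0 min group of the reperfusion arm 1 member was called, where 2.06% of all probe sets were. Without the 10 min array of preparation 2, duplicate 2, the count was also 2, without its share over all probe sets. The share of members with a positive change was 22.5% with all arrays and 19.1% without the outlying one, against 50.7% and 49.2% of all probe sets. For ischemia+reperfusion minus ischemia at 10 min, which uses no 0 min group, it was 69.7%, against 48.1% of all. Both comparisons use the same 10 min ischemia arrays, so these shares are not independent.

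Prpf38b 1379691_at read 6.74, 6.22, 6.69 and 6.83 at 10 min of ischemia, against 9.24, 7.70, 7.77 and 7.71 at 0 min. The groups did not overlap, with a change of -1.48 (SE 0.196, adjusted p = 0.0115), or -1.10 without the outlying array (adjusted p = 0.0232) and -0.28 against 0 min of the reperfusion arm. At 0 min itself ischemia+reperfusion minus ischemia was -1.20 for this probe set (adjusted p = 0.0453), the 1 member called in that comparison (1.12% of 89, against 0.333% of all probe sets). Without the outlying array this difference was -0.81 (adjusted p = 0.0488), and without the 0 min ischemia array of preparation 1, duplicate 2, it was -1.58 and did not pass (adjusted p = 0.0660).

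Srsf10 1380269_at read 7.73, 6.96, 7.62 and 6.88 at 10 min of ischemia, against 7.87, 7.97, 7.79 and 8.06 at 0 min. The arrays did not overlap, and again the lower values were those of duplicate 2. The change was -0.62 (adjusted p = 0.0155), with -0.15 in duplicate 1 and -1.09 in duplicate 2 alone. Without the 10 min array of duplicate 2 of preparation 1 or 2 it was -0.43 and -0.44 (adjusted p = 0.0883 and 0.0784).

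Hnrnpa1 1375612_at read 9.80, 9.59, 9.75 and 9.82 at 10 min of ischemia, against 10.20, 10.12, 10.36 and 10.54 at 0 min. The groups did not overlap. The change was -0.56 (SE 0.116, adjusted p = 0.0381), and -0.54 without the outlying 0 min array (adjusted p = 0.0513) and -0.51 after removal of the 10 min array of preparation 1, duplicate 2 (adjusted p = 0.0517). Sf3a3, an SF3 subunit, read 9.53, 9.57, 9.51 and 9.37, against 9.94, 9.81, 9.81 and 9.73 at 0 min, also without overlap. Its change was -0.33 (adjusted p = 0.0428), -0.30 without the outlying array (adjusted p = 0.0607) and -0.29 after removal of the 10 min array of preparation 2, duplicate 2 (adjusted p = 0.0674).

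Hnrnpm read 10.36, 10.39, 10.27 and 10.12 at 10 min of ischemia, against 10.70, 10.64, 10.73 and 10.62 at 0 min, a change of -0.39 without overlap (adjusted p = 0.0471). It was -0.37 without the outlying array (adjusted p = 0.0607) and -0.35 after removal of the 10 min array of preparation 2, duplicate 2 (adjusted p = 0.0709). The change of Hnrnpu 1370171_at, -0.53 (adjusted p = 0.0419), became -0.21 without the outlying array (adjusted p = 0.170), and it was -0.85 (adjusted p = 0.0745) and -0.52 (adjusted p = 0.0557) after removal of the 0 min array of preparation 1, duplicate 2, and the 10 min array of preparation 2, duplicate 2. Snrpd1 1379320_at, an Sm core protein, read 9.61, 9.13, 9.53 and 9.18, against 10.44, 9.52, 9.60 and 9.69 at 0 min. Its groups overlapped, and its change of -0.45 (adjusted p = 0.0486) lost the call without any 1 of 5 arrays, at -0.22 to -0.68. Like Srsf10 it was higher in duplicate 1 than in duplicate 2 in 10 of 10 pairs of the reperfusion arm, by 0.73 on average. The split was not particular to Srsf10 and Snrpd1. Of the members tested, 8 had all pairs of the reperfusion arm one way, these included, against 1 in ischemia. Another of them was Prpf38b 1374500_at, used in the pairs below, which was higher in duplicate 1 by 0.18 on average.

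At 30 and 60 min of ischemia 0 members were called with limma, where 0.0966% and 0.129% of all probe sets were, and 12 and 15 had an unadjusted p under 0.05. Against 0 min of the reperfusion arm instead, 6 and 8 members were called at 30 and 60 min, where 7.31% and 7.34% of all probe sets were. In ischemia+reperfusion, 0 members were called at 10 and 30 min (backgrounds of 0.0376% and 0.784%), with 4 and 10 at an unadjusted p under 0.05. At 60 min 2 rose and 2 fell (4.49% of 89, against 4.69% of all). Besides Srsf5 and Srsf1 above, these were Hnrnpa1 1372693_at, which read 10.37, 10.57, 10.36 and 10.15 against 10.01, 9.85, 9.93 and 9.80 at 0 min and rose by 0.47 without overlap (adjusted p = 0.0221), and Srsf10 1380269_at. At 60 min Srsf10 1380269_at read 7.58, 6.98, 7.45 and 6.54 against 7.88, 7.50, 7.95 and 7.25 at 0 min, with overlap, and changed by -0.51 (adjusted p = 0.0147). It was -0.28 after removal of the 60 min array of preparation 2, duplicate 2 (adjusted p = 0.0793), -0.36 without that of preparation 1, duplicate 2 (adjusted p = 0.115), and -0.33 after removal of the 0 min array of preparation 2, duplicate 1 (adjusted p = 0.121).

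Against 10 min of ischemia, 120 min of ischemia had 2 members called higher, Hnrnpu 1372823_at and Srsf11 1382056_at, and 0 lower (2.25% of 89, against 0.698% of all). Of the 89 members 69 had a positive change (77.5%), against 48.3% of all probe sets, and the median was 0.08 against -0.0078 over all. This comparison does not use the 0 min groups. It shares the 10 min ischemia arrays with the comparisons at 10 min above, so its share is not independent of theirs.

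Between the arms at equal time, few members differed. At 60 min, 1 member was higher and 3 lower in ischemia+reperfusion than in ischemia (4.49% of 89, against 5.38% of all). Sf3b4, an SF3 subunit that touches the pre-mRNA, read 11.31, 11.55, 11.15 and 11.42 in ischemia+reperfusion, against 10.92, 10.94, 10.83 and 10.79 in ischemia. The arms did not overlap, and the difference of 0.49 (SE 0.0847, adjusted p = 0.0157) was called whichever array was left out. Over all times, Sf3b4 was higher in duplicate 1 than in duplicate 2 in 1 of 10 pairs of the reperfusion arm, against 4 of 10 in ischemia.

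The 3 lower members at 60 min were Hnrnpul1, Hnrnpdl and Srsf10. Hnrnpul1 1399099_at, a relative of Hnrnpu, read 9.88, 9.49, 9.63 and 9.20 in ischemia+reperfusion, against 10.15, 9.94, 10.05 and 10.10 in ischemia, without overlap. Its difference was -0.51 (adjusted p = 0.0325), lost without any 1 of 3 arrays at -0.40 to -0.46. Hnrnpdl 1378967_at, of the gene for a relative of Hnrnpd, read 6.28, 6.69, 6.93 and 6.89 in ischemia+reperfusion, against 7.15, 7.48, 7.14 and 7.18 in ischemia, also without overlap. Its difference was -0.54 (adjusted p = 0.0457), lost without the ischemia array of preparation 1, duplicate 2 (-0.45, adjusted p = 0.0609) or the ischemia+reperfusion array of preparation 2, duplicate 2 (-0.53, adjusted p = 0.0531). Srsf10 1380269_at differed by -0.57 (adjusted p = 0.0110), with -0.07 in duplicate 1 alone and -1.07 in duplicate 2 alone, and -0.42 without the ischemia+reperfusion array of preparation 1, duplicate 2 (adjusted p = 0.0773).

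At 10, 30 and 120 min 0 members differed between the arms at the limma threshold, where 0%, 0.532% and 0% of all probe sets did. At an unadjusted p under 0.05 there were 15, 17 and 2 members, counts without their share over all probe sets. Ischemia+reperfusion minus ischemia at 120 min was -0.55 for Hnrnpu 1372823_at (95% interval -0.85 to -0.24, adjusted p = 0.495). Without the 2 arrays out of place 3 members and 3.58% of all probe sets were called at 120 min. Those arrays were picked because each lay nearest to a group of the other arm, so their removal by itself widens the difference between the arms, and that count is no test of it. The difference between the arms of the change from 0 to 120 min was called for 0 members and 0% of all probe sets, with 12 members at an unadjusted p under 0.05. It was 1.48 for Prpf38b 1379691_at (adjusted p = 0.139), -0.50 for Hnrnpu 1372823_at (adjusted p = 0.422) and 0.08 for Srsf10 1380269_at (adjusted p = 0.855). The arms at 0 min already differed in 62 probe sets, so equal times do not isolate reperfusion.

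Probe sets of the same gene were compared by the change in their ratio, over 52 member pairs in 19 genes. At 120 min of ischemia 11 of the 52 pairs, from 7 genes, differed, against a background of 452 of all 5112 pairs (8.84%). At an unadjusted p under 0.05 there were 28, a count without its share over all pairs. The pairs are not independent, since several of the 11 share a probe set. All 5112 pairs came from 2865 genes, and the members were not matched to them for pairs per gene. An excess among the members was therefore not tested. Besides the pairs of Hnrnpu, Prpf3 and Hnrnpa2b1 above, the change of Prpf38b 1374500_at minus that of 1379691_at was 1.40 (adjusted p = 0.00596), or 0.98 without the outlying array. Of these 1379691_at was the probe set that fell. The change of Hnrnpa1 1372693_at minus that of 1375612_at was 0.54 (adjusted p = 0.0395), although neither was called by itself in that comparison. That pair was not called without the 0 min array of duplicate 2 of either preparation (0.53 and 0.41, adjusted p = 0.0544 and 0.0701). For Srsf10 the change of 1380269_at minus that of 1382052_at was -0.75 (adjusted p = 0.0133). It was -1.15 with duplicate 2 alone (adjusted p = 0.0116) and -0.34 with duplicate 1 alone (adjusted p = 0.380). The call was lost without the 120 min array of preparation 2, duplicate 2 (-0.45, adjusted p = 0.0814), and without the 2 arrays out of place (-0.45, adjusted p = 0.138).

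Hnrnpa3, an hnRNP of the A and B family, had 2 called pairs. The change of 1370871_at minus that of 1394741_at was 1.02 (adjusted p = 0.0418), and that of 1388119_at minus 1394741_at was 0.48 (adjusted p = 0.0468). Its 1370871_at read 10.66 on the outlying array and 12.75 to 12.79 on the other 3 of 0 min ischemia, and without that array the first difference was 0.49. The first pair lost its call after removal of any 1 of 3 other arrays and the second of any 1 of 4, at adjusted p up to 0.0907 and 0.152. The 11 pairs stayed called without the outlying array. In both single-duplicate fits 3 of them were called, those of Hnrnpu 1370171_at, Prpf3 and Hnrnpa2b1 1378543_at. Without the 0 min ischemia array of preparation 1, duplicate 2, 5 of the 52 pairs differed.

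Fewer pairs differed elsewhere. At 10 min of ischemia 2 did (1.41% of all pairs), those of Prpf38b (1.43, adjusted p = 0.0118) and Srsf10 (-0.63, adjusted p = 0.0487). The Prpf38b pair was at 1.02 without the outlying array and still called. The Srsf10 pair lost its call without the 10 min array of duplicate 2 of either preparation (-0.45 and -0.52, adjusted p = 0.111 and 0.119), and it was -0.41 with duplicate 1 alone (adjusted p = 0.385). Between the arms at 0 min the Prpf38b pair differed by 1.17 (adjusted p = 0.0259; 1.13% of all pairs). Without the outlying array this was 0.75 (adjusted p = 0.0366), and it was not called without the 0 min ischemia array of preparation 1, duplicate 2 (1.58, adjusted p = 0.0757) or with duplicate 1 or 2 alone (adjusted p = 0.148 and 0.378). Between the arms at 60 min the Srsf10 pair differed by -0.70 (adjusted p = 0.0312; 1.56% of all pairs). This lay in the duplicate 2 arrays, at -1.32 with duplicate 2 alone (adjusted p = 0.00546) and -0.07 with duplicate 1 alone (adjusted p = 1.00). It was not called without the 2 arrays out of place (adjusted p = 0.146) or without any 1 of 3 duplicate 2 arrays (-0.46 to -0.53). Probe sequences were not used, so which exon or end of the transcript each probe set reads was not determined here, and a near-identical gene copy could share its signal.

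**Figure D4:**
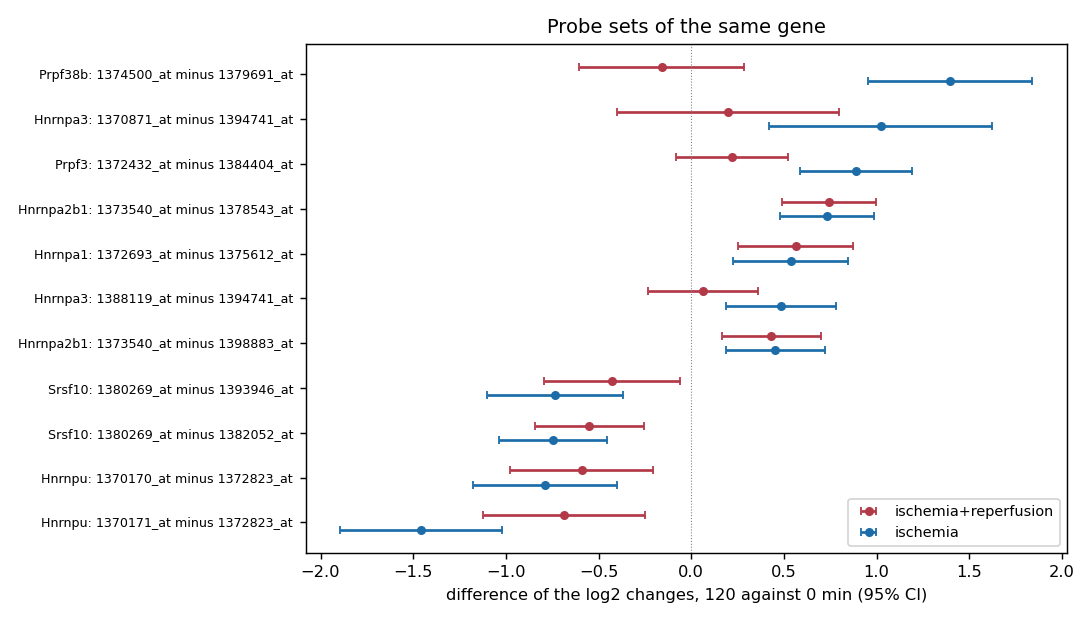
Points show, for the 11 pairs of probe sets called at 120 min of ischemia, the difference of their log2 changes from 0 to 120 min with 95% confidence intervals, in ischemia+reperfusion (upper of each pair of points) and ischemia (lower). In ischemia the differences run from -1.46 for Hnrnpu to 1.40 for Prpf38b; in ischemia+reperfusion 1 of these pairs, Hnrnpa2b1 1373540_at minus 1378543_at at 0.75, was called.

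Other splicing genes are given from lists chosen with earlier results in view, beside the backgrounds above. Of 87 probe sets (73 genes) of other spliceosome subunits, 2 rose and 0 fell at 120 min of ischemia+reperfusion, and 3 rose and 5 fell at 120 min of ischemia. U2af2, which recognises the polypyrimidine tract, rose by 0.71 in ischemia. Of 66 probe sets (34 genes) of SR-related proteins and SR kinases, 5 rose and 2 fell in ischemia+reperfusion, and 7 rose and 1 fell in ischemia.

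Clk4, a kinase of SR proteins, rose by 0.55 at 120 min of ischemia+reperfusion (adjusted p = 0.00353) and by 0.56 at 120 min of ischemia (adjusted p = 0.00198). Srrm2, a large SR-related spliceosome protein, rose by 0.88 in ischemia+reperfusion and by 0.73 in ischemia at 120 min (probe set 1390048_at). Of 87 probe sets (46 genes) of other splicing regulators, 3 rose and 3 fell at 120 min of ischemia+reperfusion, and 3 rose and 10 fell at 120 min of ischemia. Rbm24 1375198_at, of a muscle splicing regulator, fell by 1.27 at 120 min of ischemia. Celf2, also a splicing regulator, fell by 1.12 at 10 min and by 1.09 at 120 min of ischemia. Further probe sets, Rbm24 1374056_at and Srrm2 1398940_at, are not described here. Changes of these list genes against 0 min ischemia are given with all arrays only.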

How the data were processed

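The deposited table held probe set intensity values on a linear scale for 40 arrays, from -1725 to 17404, of which 15.8% were negative; how the authors computed and scaled them is not given in the sources. Per the labels' protocols, RNA came from spin columns and was amplified by an Eberwine-type method with biotin. Array medians ran from 101 to 171, so values were quantile-normalized, floored at 0 and transformed as log2(value + 16). Tests kept the probe sets whose mean exceeded the 40th percentile, a log2 value of 6.48. Duplicates were averaged, giving 20 values and 2 preparations per group, and all 10 groups were fitted with limma 3.58.1 in R 4.3.3 with preparation as a block (9 residual degrees of freedom, prior 2.27). Tests were two-sided and adjusted by Benjamini-Hochberg within a comparison. The median SE was 0.118 and the 95% half-width 0.258 log2 units, limited by the number of arrays.

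The labels give each preparation a number shared by all groups. Between groups, the difference of preparation 1 and 2 correlated across probe sets by 0.18 at the median, and by over 0.1 in 34 of 45 pairs. The fit was tested on simulated data with the layout of 120 against 0 min ischemia: it recovered 31.3% of changes of 0.5 log2 units, 85.1% of 1 and 93.9% of 2 over 18625 probe sets with 7 false calls, and 14.6%, 69.4% and 93.1% over 5112 pairs with 9 false calls. The simulated noise was normal, independent and equal in all groups, without an outlying array or a difference between duplicates. The false calls in these arrays may therefore be more. Recovery of pairs was counted without regard to direction. Pairs of probe sets with the same single symbol were fitted as log2 ratios in the same model.

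Genes were named from platform probe sets with 1 symbol, and positions and promoters are RefSeq's for GRCr8, with 55 of 57 genes matched to a promoter. The members, the lists and the arrays left out were chosen with earlier results of these data known. Named in the text are called members, up to 8 a direction in the main comparisons and 4 in the others, with their gene's other probe sets, the widest and narrowest ranges, and the called pairs with the largest difference, up to 6; further pairs, and some Srsf10, SF3 and list values, were added for completeness after their values were seen. Alternatives were another scaling, pseudocount or filter, no block, arrays as samples, single arrays left out, and the duplicates taken alone.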

Additional observations from a re-analysis of the deposited data

Results flagged for a closer look

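In 67 groups of 4 arrays of called member probe sets, 7 had an array apart from the other 3, where chance gives about 1 in 20. The 0 min ischemia array of preparation 1, duplicate 1, read 9.24 for Prpf38b 1379691_at, where the other 3 read 7.70 to 7.77. The same array read 12.32 for Hnrnpu 1370171_at, where the other 3 read 11.05 to 11.25. At 120 min of ischemia, Hnrnpu 1372823_at read 8.41 on the array of preparation 2, duplicate 2, against 8.52 to 8.53 on the others. Hnrnpm 1370919_at read 10.44 on the 120 min ischemia array of preparation 1, duplicate 1, against 10.34 to 10.35. Prpf4b 1385533_at read 9.25 in preparation 2, duplicate 1, of 120 min ischemia+reperfusion, against 8.01 to 8.15. Hnrnpa2b1 1378543_at read 8.67 in preparation 2, duplicate 2, of 0 min ischemia+reperfusion, against 9.12 to 9.14. Hnrnpdl 1378967_at read 7.48 on the 60 min ischemia array of preparation 1, duplicate 2, against 7.14 to 7.18.

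The change of Prpf38b 1379691_at from 0 to 120 min went opposite ways in both preparations, at 0.12 in ischemia+reperfusion and -1.35 in ischemia. The difference of 1.48 was tested as an interaction and did not pass (limma adjusted p = 0.139).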

How the results depend on the processing

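Of the single-probe-set results recomputed under the alternatives, 639 kept their side of the threshold, 222 lost the call and 2 turned: Prpf4 1392461_at at 120 min of ischemia was -0.045 against 0 min of the reperfusion arm, and Srsf11 1368212_at was -0.014 on the deposited scale. The numbers of called members are given with I for ischemia and IR for ischemia+reperfusion against 0 min of the arm, unless another group is named. The cause of the shifts was not tested. Where no share of all probe sets or pairs stands beside a count, that share is not given here, and the count is no result about the members. The duplicates taken alone, the other baseline and the removal of Srsf11 1368212_at (12 at I 120 min) were chosen after seeing the data.

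With no replicate block for the preparation, which the labels pair across groups, 2 members were called at I 10 min, 7 at I 120 min, 1 at I 120 against 10 min and 0 between arms at 0 min, and 18 other splicing probe sets at I 120 min. With arrays as samples (estimated correlation 0.08) members numbered 12 at I 10 min, 1 at I 30 min, 26 at I 120 min, 9 at I 120 against 10 min, 2 at IR 30 min, 10 at IR 60 min and 13 at IR 120 min. Between arms they numbered 3, 1, 3 and 8 at 0, 10, 30 and 60 min; other splicing probe sets numbered 20 at I 10 min and 27 at IR 120 min, and pairs 1 at I 10 min, 5 at IR 120 min and 2 between arms at 60 min. On the deposited scale members numbered 1, 1 and 24 at I 10, 30 and 120 min, 0 and 3 at IR 60 and 120 min and 1 between arms at 30 min, with 3 other splicing probe sets at IR 120 min. Median centring gave 1 member at I 120 against 10 min, 1 between arms at 30 min and 23 other splicing probe sets at IR 120 min.

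The 60th percentile filter gave 2 members at IR 30 min, 0 and 1 between arms at 0 and 30 min, and 0, 6, 0 and 0 pairs at I 10 min, I 120 min and between arms at 0 and 60 min. No filter gave 4 members at I 10 min, 1 at IR 30 min, 0 and 1 between arms at 0 and 30 min, 6 other splicing probe sets at I 10 min, and 1 and 0 pairs at I 10 min and between arms at 60 min. A pseudocount of 64 gave 1 member at IR 30 min and 1 between arms at 30 min, with 4 other splicing probe sets and 1 pair at I 10 min.

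With duplicate 1 alone members numbered 0 and 3 at I 10 and 120 min, 0 at I 120 against 10 min, 1 and 2 at IR 60 and 120 min and 0 between arms at 0 and 60 min; other splicing probe sets numbered 0, 12 and 4 at I 10, I 120 and IR 120 min, and pairs 0, 3, 0, 0 and 0 at I 10, I 120, IR 120 min and between arms at 0 and 60 min. With duplicate 2 alone members numbered 1 and 4 at I 10 and 120 min, 0 at I 120 against 10 min, 1 and 1 at IR 60 and 120 min and 0 between arms at 0 min; other splicing probe sets numbered 7 and 3 at I and IR 120 min, and pairs 1, 7, 0, 0 and 4 in the same order. Against 0 min of the reperfusion arm 1, 6 and 8 members were called at I 10, 30 and 60 min, where 2.06%, 7.31% and 7.34% of all probe sets were.

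Without the 2 arrays out of place members numbered 1 at I 10 min (1.55% of all probe sets) and 5 at I 120 against 10 min (2.24%). Between arms they numbered 0, 1, 2 and 3 at 0, 30, 60 and 120 min (0.188%, 0.934%, 5.9% and 3.58% of all probe sets), with 1 other splicing probe set at I 10 min and 1, 2, 0 and 0 pairs at I 10 min, IR 120 min and between arms at 0 and 60 min. Without the outlying 0 min ischemia array members numbered 2 at I 10 min, 1 at IR 30 min and 1 between arms at 30 min (1.39%, 0.886% and 1.04% of all probe sets), with 8 pairs at IR 120 min and 3 between arms at 60 min. With single arrays left out members ranged from 2 to 8 at I 10 min, 11 to 17 at I 120 min, 1 to 4 at I 120 against 10 min, 0 to 1 at IR 10 min, 0 to 2 at IR 30 min, 3 to 7 at IR 60 min and 5 to 11 at IR 120 min, and between arms 0 to 1 at 0, 30 and 120 min and 2 to 6 at 60 min. Other splicing probe sets ranged from 1 to 9 at I 10 min, 20 to 38 at I 120 min and 11 to 17 at IR 120 min, and pairs from 1 to 4 at I 10 min, 5 to 15 at I 120 min, 0 to 3 at IR 120 min, and between arms 0 to 1 at 0 min and 0 to 2 at 60 min.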
